A study of Daphnia magna with 48 samples.

Results

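The genes described here are the 100 that fell most between the first and the fourth day of sampling in the water flea Daphnia magna, sampled as whole animals, and that had completed at least 50% of that fall by the second day. They were taken from the 16066 genes of the deposited table. Level was measured as L, the log2 of CPM plus 1, where CPM are a gene's counts scaled to a common library total. A gene qualified when its mean was from 5 to under 1000 CPM, its pooled SD of L within the 12 treatment-day groups (W) was under 1, its mean L was lower on day 4 than on day 1, and 50% to 100% of that difference was reached by day 2. Of the 10398 genes that met the limits on level and spread, 6659 were lower on day 4 and 1712 of these had the required timing. The 100 with the largest fall were kept.

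Animals of a field population, cultured in the artificial freshwater medium M4, were exposed to copper, to arsenic, to a mixture of both, or to neither (control), for 1, 2 or 4 days. RNA of whole bodies was sequenced from 4 libraries for each treatment and day, 48 in all, so each day mean is over 16 libraries to which every treatment gives 4. The sources used here state no dose, no age of the animals and no number of animals in a library. Nor do the labels tie the libraries of a group to separate cultures, and the p-values below therefore reflect library-to-library spread that could be technical.

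Daphnia grow through repeated moults, and in adult females each moult is tied to the release of a brood and to the provisioning of the next clutch with yolk. Transcripts for cuticle, yolk and digestion are known to vary over that cycle, so the time of sampling matters in whole animals. Copper is an essential enzyme cofactor that is toxic in excess, and arsenic is a metalloid that binds thiol groups of proteins. In whole bodies, fewer cells of a type and less RNA per cell cannot be told apart. The identifiers matched 0 of the 28335 genes of the reference table used here, so no gene below carries a name, a role or a place in the genome, the tissue label could not be set against marker genes, and shared reads between near-identical or overlapping genes could not be marked.

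The libraries held 7.93 M to 20.1 M counts (M, mega; median 13.3 M), and the 100 genes together took 0.223% to 0.696% of them. The lowest count of any of these genes in any library was 15. Control replicate 4 of day 1 stood apart, with 479 genes of the table at no count against at most 285 in any other library, and it also had the highest mean level of the 100 genes.

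Most of the falls were moderate and a few were large. The fall from day 1 to day 4 had a median of 0.61 on the log2 scale over the 100 genes, with quartiles of 0.57 and 0.71, and only 3 genes fell by more than 1. Over all 10398 genes within the same limits on CPM and W, called all genes in range below, the median was 0.11. These values chose the genes and are a description, not a test. The last 3 genes inside the limit fell by 0.5383, 0.5377 and 0.535, and the next 3 outside it by 0.5349, 0.534 and 0.5299. No gap separated them.

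The sizes depend on how libraries are scaled. After trimmed-mean (TMM) scaling of the libraries, the median fall was 0.02 over all genes in range and 0.52 over the 100. All 100 remained lower on day 4 under that scaling, the smallest fall then being 0.45.

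The timing ranged over the whole interval allowed. The share of the fall reached by day 2 had a median of 66.5% and ran from 50.02% to 98.9%. It was under 60% in 32 genes, from 60% to under 70% in 31, from 70% to under 80% in 17, from 80% to under 90% in 13, and 90% or more in 7. Both values were also taken in 4 sets of 12 libraries with the same replicate number, which are the libraries that chose the genes. The median fall was 0.50 to 0.75 (SD 0.12 over 4 sets), and the median share reached by day 2 was 19.7% to 93.8% (SD 34.4).

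**Figure D1:**
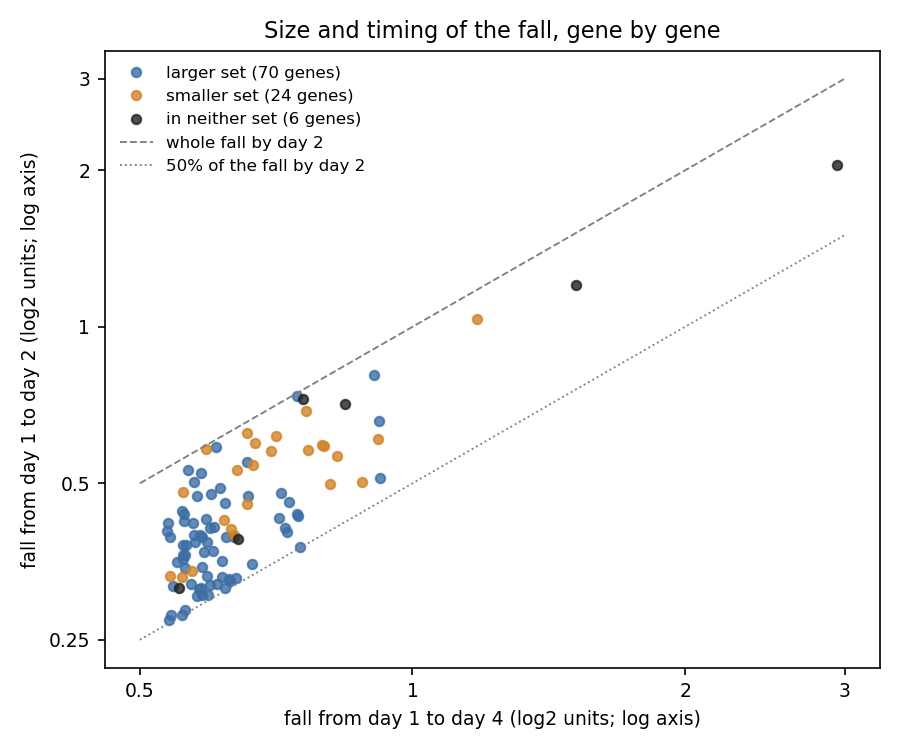
Fall in mean L from day 1 to day 2 against the fall from day 1 to day 4, both in log2 units on log axes, with 1 point for each of the 100 genes coloured by the set of genes it varied with. Points lie between the dotted line (50% of the fall by day 2) and the dashed line (whole fall by day 2) because of the rule; 3 genes lie beyond a fall of 1.

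Dapma7bEVm002847t1 had the largest fall, 2.94 on the log2 scale or 7.68-fold. Its 16 libraries of day 1 ran from 19.0 to 151.8 CPM with a median of 73.3 CPM. On day 2 they ran from 8.27 to 32.1 CPM (median 16.5 CPM), and on day 4 from 1.31 to 36.2 CPM (median 10.3 CPM). On day 4 it read 16.5, 13.8, 13.5 and 18.3 CPM with copper, 6.58, 1.55, 2.78 and 1.31 CPM with arsenic, 11.4, 11.3, 6.50 and 36.2 CPM in the mixture, and 2.37, 15.4, 4.31 and 9.34 CPM in controls. The 4 copper libraries lay above the 4 arsenic libraries, while the mixture and control libraries spread over both.

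Dapma7bEVm005243t1 fell by 1.51 (2.86-fold), and 79.7% of that was reached by day 2. Its day medians were 36.9, 15.2 and 11.7 CPM. Of its control libraries on day 1, replicate 4 was low at 22.3 CPM beside 47.6 to 54.6 CPM in the other 3.

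Dapma7bEVm009229t1 and Dapma7bEVm007356t1 mark the ends of the timing. The first had medians of 12.2, 7.11 and 6.72 CPM on the 3 days and 98.9% of its fall by day 2. The second had medians of 22.0, 18.1 and 15.9 CPM and 50.02% of its fall by day 2, so its level stepped down about evenly over the 2 intervals.

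The 100 genes had a median of 19.9 CPM, against 33.4 CPM over all genes in range, and only 2 averaged above 100 CPM. Dapma7bEVm011180t1, at 857 CPM on average, ran from 583 to 1921 CPM on day 1 (median 910.3 CPM), from 425.5 to 1154 CPM on day 2 (median 756.5 CPM) and from 416 to 1126 CPM on day 4 (median 708.6 CPM). Its days overlapped widely. Dapma7bEVm003918t1 averaged 101 CPM, with day medians of 112.5, 95.9 and 78.4 CPM. CPM is not divided by gene length, so these levels do not rank transcripts of different genes.

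The direction was also counted within each treatment, from the same libraries that chose the genes, so the counts are a description. Between days 1 and 4, 100 of the 100 were lower on the later day with copper, 100 with arsenic, 97 in the mixture and 99 in controls, and 96 were lower in all 4. Over all genes in range, 66.2%, 58.8%, 64.9% and 61.5% were lower in the same order of treatments. Between days 1 and 2 the counts were 95, 97, 93 and 99, beside 66.7%, 62.3%, 55.4% and 59.2% of all genes in range, and 84 were lower in all 4. Between days 2 and 4 the counts were 94, 78, 77 and 85, beside 60.6%, 45.7%, 59.4% and 61.1% of all genes in range. In that interval 44 were lower in all 4. The share of all genes in range that were lower in all 4 was not taken for any interval, so nothing is read from those counts.

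The 3 genes not lower on day 4 in the mixture were Dapma7bEVm005787t1, Dapma7bEVm011185t1 and Dapma7bEVm006293t1, with falls of −0.09, −0.16 and −0.14 there against 1.31, 0.75 and 0.96 in controls. The last of these was chosen for naming after its values were seen. Dapma7bEVm010637t1 was the gene that was not lower on day 4 in controls, where it averaged 67.6 ± 27.2, 81.9 ± 16.5 and 70.4 ± 35.0 CPM on days 1, 2 and 4 (SD, n = 4 each). With copper it averaged 114 ± 32.9, 76.9 ± 61.6 and 58.3 ± 30.5 CPM on the same days. The copper change from day 1 to day 4 minus that of controls was −0.98 on the log2 scale (SE 0.59, edgeR adjusted p 0.9996). It was −0.58 without control replicate 4 of day 4, and leaving out each other library gave −1.39 to −0.74. Its replicates spread widely within a group, as with copper on day 2, at 87.9, 41.8, 19.2 and 158.7 CPM.

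The median fall over the 100 genes was also taken within each treatment's own libraries. From day 1 to day 2 it was 0.47 with copper, 0.36 with arsenic, 0.25 in the mixture and 0.60 in controls. From day 1 to day 4 it was 0.79 with copper, 0.49 with arsenic, 0.56 in the mixture and 0.73 in controls. The medians over all genes in range were 0.17, 0.05, 0.12 and 0.11 for the longer interval. Leaving out single libraries moved these medians: without control replicate 4 of day 1 the control values were 0.39 to day 2 and 0.52 to day 4.

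Separation of the days by library was partial. Every copper library of day 1 lay above every copper library of day 4 in 54 of the 100 genes (16.9% of all genes of the table). The same held in 12 genes with arsenic (2.84% of all genes), 18 in the mixture (8.84%) and 43 in controls (8.02%). The rule used this contrast, so nothing is read from these counts. Over all treatments, 0 of the 100 genes had all 16 libraries of day 1 above all 16 of day 4. The share over all genes of the table was not taken for this comparison, so nothing is read from it either.

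The mean L over the 100 genes gave each library a single level. It averaged 4.86 ± 0.23, 4.39 ± 0.22 and 4.10 ± 0.07 with copper on days 1, 2 and 4, and 4.82 ± 0.32, 4.41 ± 0.31 and 4.25 ± 0.16 with arsenic (SD, n = 4 each). In the mixture it averaged 4.73 ± 0.25, 4.34 ± 0.31 and 4.15 ± 0.27, and in controls 4.93 ± 0.37, 4.33 ± 0.16 and 4.14 ± 0.21. The treatment means of a day spanned 0.20, 0.08 and 0.14 on days 1, 2 and 4, whereas the libraries of a single group spanned up to 0.83, 0.74 and 0.58. These ranges are unlike measures, since a mean of 4 libraries varies less than a single library and the second values are the largest of 4 groups. Libraries of different days also overlapped: 8 of the 16 libraries of day 1 lay below the highest of day 2, and 2 lay below the highest of day 4.

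**Figure D2:**
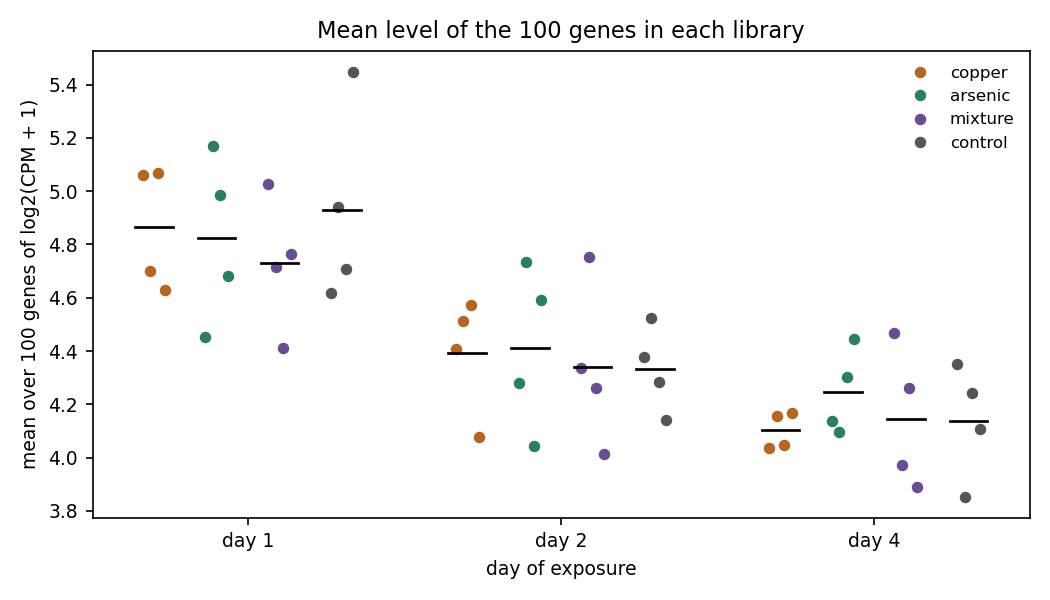
Mean of L, log2(CPM + 1), over the 100 genes in each of the 48 libraries, by day and treatment; points are libraries and bars are means of 4. Levels step down over the days in every treatment, the highest library being control replicate 4 of day 1 at 5.45. Libraries of a group spread more widely than the treatment means of their day, except with copper on day 4 (0.13 beside 0.14). Means of 4 vary less than single libraries.

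Whether an exposure moved these genes was tested within each day, since the rule used only means over all treatments. The day-1 mean includes control replicate 4, the library with the highest mean level of the 100 genes. The rule therefore favoured genes high in that library, and contrasts that use day-1 controls are not free of the rule. Fits without that library keep genes that were chosen with it. Counts of all 15813 testable genes were fitted together with edgeR's quasi-likelihood test, and p-values were adjusted over all of them by the Benjamini-Hochberg method. At an adjusted p under 0.05, edgeR called 0 of the 100 genes in each of the 17 contrasts between treatments, and DESeq2 called 1 gene in 2 of them. The share of all genes that DESeq2 called is not given here, so its calls have no background to be set against. For each contrast the share of all tested genes called by edgeR at that threshold is given first. The count of the 100 at an unadjusted edgeR p under 0.05 follows, with the share over all tested genes.

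Against controls, copper called 0%, 0% and 0.0696% of all genes on days 1, 2 and 4. At an unadjusted p under 0.05 it gave 0 of the 100 genes on day 1 (4.91% of all genes), 5 on day 2 (1.68%) and 4 on day 4 (3.13%). Arsenic called 0.0126%, 0% and 0.0632% of all genes, and gave 4 of the 100 at the unadjusted level on day 1 (5.88% of all genes), 3 on day 2 (3.64%) and 4 on day 4 (8.18%). The mixture called 0.0253%, 0.145% and 0.0126% of all genes, and gave 6 of the 100 on day 1 (3.94% of all genes), 9 on day 2 (11%) and 0 on day 4 (3.47%). In 6 of these 9 contrasts the count was below the share over all genes, and it was above it for copper on days 2 and 4 and for the mixture on day 1.

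Control replicate 4 of day 1 bore on the direction of the day-1 differences. Over the 100 genes the median log2 difference on day 1 was −0.11 for copper, −0.07 for arsenic and −0.23 for the mixture. Without that library the same medians were 0.13, 0.12 and 0.01.

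The depth and spread set what could be seen. The median SE of a within-day difference was 0.28 to 0.29 on the log2 scale for the 100 genes and 0.23 over all tested genes. In the 9 within-day contrasts, the 95% interval lay inside a 2-fold change either way for 57 to 84 of the 100 genes.

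The size of the fall itself was then compared between exposed and control animals, as the difference of the 2 changes. From day 1 to day 2, edgeR called 0% of all genes for copper, 0% for arsenic and 0.0126% for the mixture. At an unadjusted p under 0.05 the counts among the 100 were 2 for copper (3.5% of all genes), 6 for arsenic (5.48%) and 8 for the mixture (9.14%). The median difference was 0.21 for copper, 0.24 for arsenic and 0.26 for the mixture, with 75, 70 and 71 of the 100 genes above 0, the side of a smaller fall than in controls. The 3 contrasts share their control libraries, among them replicate 4 of day 1, so these medians are not independent of each other. Without that library the medians were −0.03 for copper, 0.00 for arsenic and 0.01 for the mixture. In the same order, 45, 51 and 50 of the 100 genes were then above 0. The other measure, the median fall within each treatment's own libraries, was 0.39 by day 2 in controls without that library. It was 0.47 with copper, 0.36 with arsenic and 0.25 in the mixture. Why the 2 measures differ for the mixture was not tested.

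From day 1 to day 4, edgeR called 0% of all genes for copper, 0% for arsenic and 0% for the mixture. The unadjusted counts were 0 for copper (3.12% of all genes), 2 for arsenic (6.98%) and 3 for the mixture (3.83%). The median difference was 0.03 for copper, 0.18 for arsenic and 0.24 for the mixture, and without control replicate 4 of day 1 it was −0.22, −0.04 and 0.03. Differences of changes were measured less closely than differences within a day: for 30 to 45 of the 100 genes the 95% interval stayed inside a 2-fold change.

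Dapma7bEVm003920t1 was the gene nearest to the threshold, with the mixture above controls on day 2. On day 2 it read 22.7, 24.9, 28.5 and 20.5 CPM in the mixture, against 14.5, 14.5, 7.93 and 10.9 CPM in controls. The 4 mixture libraries all lay above the 4 control libraries. The log2 difference was 0.98 (SE 0.24, edgeR adjusted p 0.0820, 95% interval 0.50 to 1.46), and with DESeq2 the adjusted p was 0.0181. Over 13 alternatives its adjusted p ran from 0.0181 to 0.386.

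On day 1 the same gene averaged 28.3 ± 10.7 CPM with copper, 21.7 ± 1.83 CPM with arsenic, 21.6 ± 6.25 CPM in the mixture and 31.5 ± 5.67 CPM in controls (SD, n = 4 each). Its mean in the mixture on day 2 was 24.2 ± 3.40 CPM, near that of day 1, and by day 4 it was at 12.9 ± 3.88 CPM. In controls it was at 11.96 ± 3.18 CPM on day 2 and was at 14.9 ± 5.27 CPM on day 4. The copper and arsenic means of day 2 lay between, at 17.6 ± 3.03 and 17.7 ± 0.783 CPM, and 1 copper library, at 21.6 CPM, lay above the lowest mixture library. The change from day 1 to day 2 in the mixture minus that in controls was 1.53 (SE 0.33, edgeR adjusted p 0.0835, 95% interval 0.86 to 2.20). DESeq2 gave 0.00883 and edgeR without mixture replicate 3 of day 1 gave 0.0243, both past the threshold, over a range of 0.00883 to 0.328 in 21 alternatives. Without control replicate 4 of day 1 the difference was 1.43 (edgeR adjusted p 0.290). The gene also had the smallest p among the 100 in 4 other contrasts (arsenic on days 1 and 2, and the day-1-to-day-2 change of copper and of arsenic). None of them passed (edgeR adjusted p 0.80 to 1.0). The arsenic contrasts of days 1 and 2 used the controls of their own day and the changes used those of both days. All 4 therefore share control libraries with the mixture's change.

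**Figure D3:**
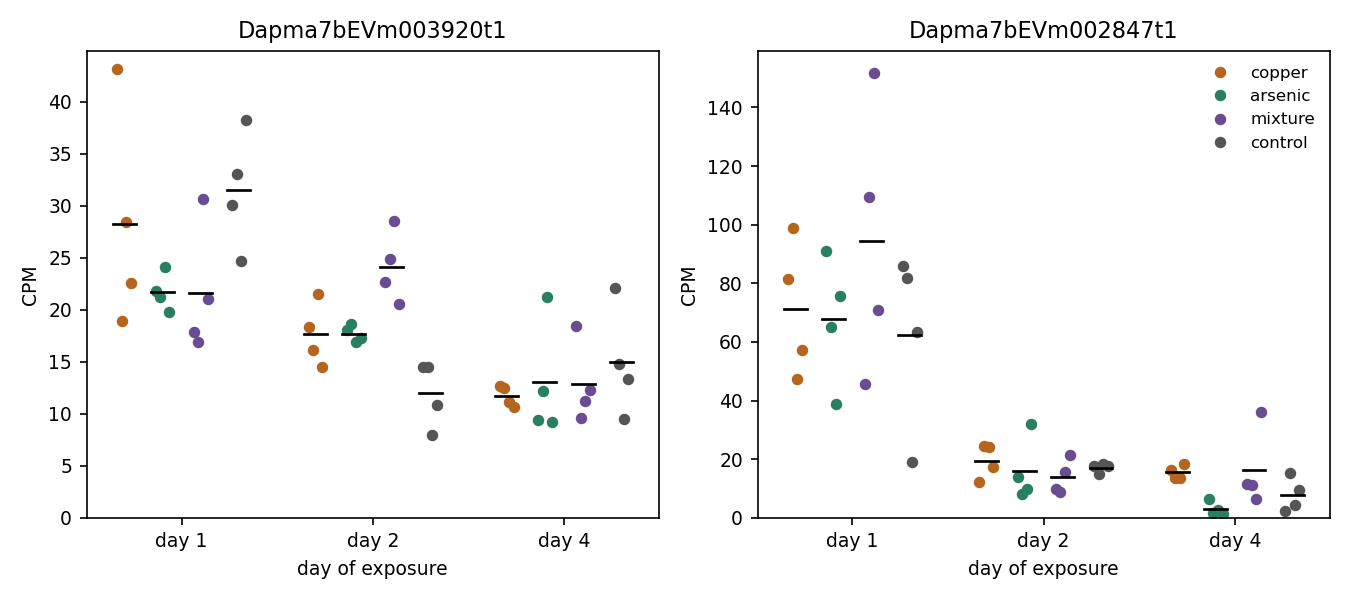
CPM in every library of Dapma7bEVm003920t1 (left) and Dapma7bEVm002847t1 (right), by day and treatment; points are libraries and bars are means of 4. On day 2 the 4 mixture libraries of the left gene sit between 20.5 and 28.5 CPM, above the 4 controls, and on day 4 the arsenic libraries of the right gene sit between 1.31 and 6.58 CPM.

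Each metal was also compared with its absence over all days, with 24 libraries on each side. For copper present, edgeR called 0.0632% of all genes. At an unadjusted p under 0.05, 4 of the 100 genes differed (3.76% of all genes). The smallest p was that of Dapma7bEVm002847t1, which was higher with copper by 0.68 (SE 0.21, edgeR adjusted p 0.562; 0.218 to 0.9997 over 52 alternatives). For arsenic present, edgeR called 0% of all genes, and 17 of the 100 had an unadjusted p under 0.05 (6.9% of all genes), 4 higher and 13 lower. The smallest p was that of Dapma7bEVm011185t1, which was lower with arsenic by a log2 difference of −0.53 (SE 0.15, edgeR adjusted p 0.243; 0.0839 to 0.527 over 52 alternatives). These averages were measured closely: the 95% interval stayed inside a 2-fold change for 99 of the 100 genes with copper and for 100 with arsenic.

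On day 1 Dapma7bEVm011185t1 read 15.7, 34.6, 11.6 and 19.6 CPM in the mixture, against 24.3, 52.2, 24.4 and 40.7 CPM in controls, and the groups overlapped. With copper alone on the same day it read 44.8, 70.8, 51.3 and 43.1 CPM, all above the mixture libraries. Its group means were as low in other groups, at 19.3 ± 3.87 and 18.5 ± 8.07 CPM with arsenic on days 2 and 4 and at 20.2 ± 6.28 CPM in controls on day 4, beside 20.4 ± 10.1 CPM in the mixture on day 1 (SD, n = 4 each).

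Dapma7bEVm002517t1 had the smallest p among the 100 for arsenic on day 4. It read 4.62, 7.99, 6.55 and 6.22 CPM with arsenic, against 12.7, 9.10, 8.27 and 12.3 CPM in controls. The 4 arsenic libraries lay below the 4 control libraries, by a log2 difference of −0.80 (SE 0.24, edgeR adjusted p 0.549). On day 2 it had the smallest p for copper, at 7.53, 7.31, 6.77 and 6.21 CPM against 9.97, 12.8, 13.6 and 8.18 CPM in controls (−0.67, SE 0.24, edgeR adjusted p 0.9997).

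The remaining genes singled out by smallest p were further from the threshold. Dapma7bEVm005787t1 was lower in the mixture on day 1, at 10.7 ± 3.91 against 22.1 ± 12.2 CPM in controls (SD, n = 4 each), where control replicate 4 read 39.7 CPM; the log2 difference was −1.05 with that library and −0.64 without it. Dapma7bEVm006927t1 stayed at 39.6 ± 8.67 CPM with arsenic on day 4 beside 28.9 ± 4.71 CPM in controls. It was named for its change from day 1 to day 4 with arsenic minus that of controls. Leaving out single libraries gave 0.56 to 0.94 for that log2 difference. The lowest value came without control replicate 4 of day 1, which read 87.8 CPM beside 41.1 to 55.5 CPM. Dapma7bEVm005381t1 was at 14.8 ± 2.09 CPM with copper on day 4 and at 20.8 ± 3.83 CPM in controls. Dapma7bEVm002511t1 was at 10.5 ± 2.49 CPM with copper on day 1 and at 14.7 ± 3.66 CPM in controls. In these 4 within-day comparisons the edgeR adjusted p was 0.63 to 1.0.

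Libraries of the same group differed in a pattern that many of the genes shared. The rule used the size of the spread within groups (W) but not how genes varied together. The median W was 0.43 for the 100 genes and 0.23 over all genes in range. By day, the median SD within groups was 0.49, 0.37 and 0.38 on days 1, 2 and 4 for the 100 genes, against 0.26, 0.22 and 0.21 over all genes in range.

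Deviations from the group means were correlated across the 48 libraries for every pair of genes, as a description. The points share libraries, and L depends on each library's total. The mean pairwise r was 0.353 among the 100 genes and 0.0318 among all genes in range. Of the 4950 pairs, 79.2% had r above 0 and 41.9% above 0.5, with a range of −0.580 to 0.946. The genes were therefore far from uniform, and 7 of them had a mean r below 0 with the rest. By the same measure the 100 genes falling most after day 2 had a mean r of 0.486, and the 100 rising mostly by day 2 a mean r of 0.374.

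Grouping the genes by these correlations (average linkage, 4 groups, chosen after the data were seen) gave a larger set of 70 genes, a smaller set of 24 and 6 in neither. The mean r was 0.620 within the larger set, 0.527 within the smaller set and 0.101 between them. The larger set had a median fall of 0.59 with 63.8% of it by day 2, and the smaller set a median fall of 0.67 with 74.3% by day 2. The 6 genes in neither had a median fall of 0.80 and included Dapma7bEVm002847t1 and Dapma7bEVm005243t1, the largest falls of all. Complete linkage, TMM scaling and rank correlation kept 87, 90 and 94 of the 94 genes of the 2 sets together.

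**Figure D4:**
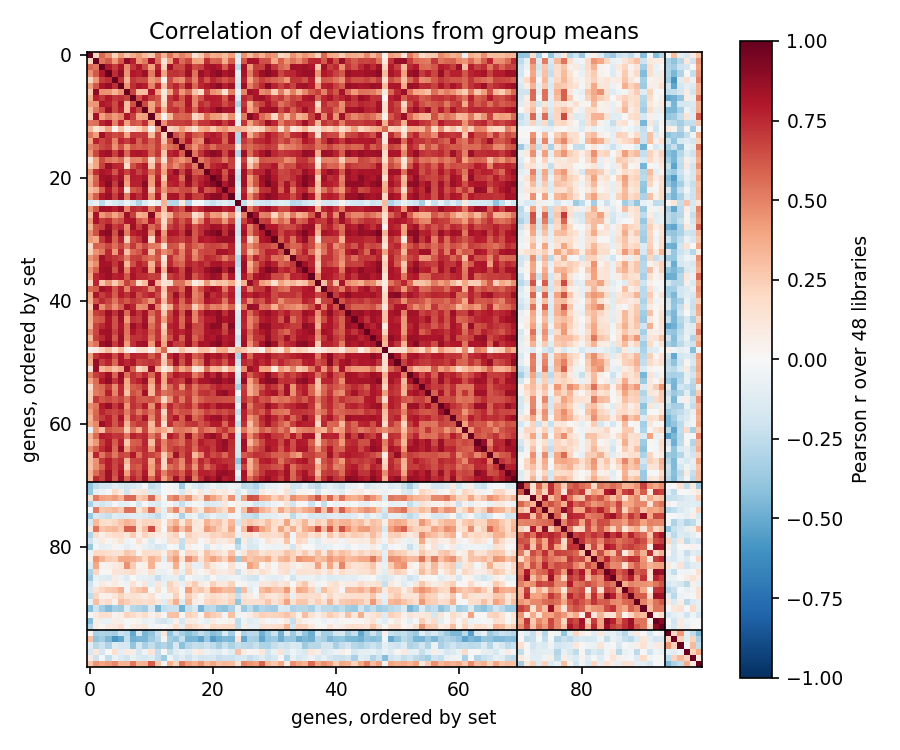
Pearson r between the deviations of each pair of the 100 genes from their group means, over 48 libraries, with genes ordered by set and lines at the set borders. The blocks of the larger set (70 genes, mean r 0.620) and the smaller set (24 genes, mean r 0.527) stand out, and the field between them is pale (mean r 0.101).

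Dapma7bEVm006845t1 and Dapma7bEVm012607t1, both of the larger set, followed the mean of the other 99 genes most closely, with r of 0.924 and 0.906 over the 48 libraries. In controls of day 1 Dapma7bEVm006845t1 read 62.3, 70.8, 60.1 and 116 CPM, and Dapma7bEVm012607t1 read 39.9, 49.0, 44.3 and 67.5 CPM. In both genes replicate 4 was the highest, as in the mean.

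The 2 sets were separated by these same deviations in the same libraries, so how they differ between libraries is only described. The same library was highest in both sets in 3 of the 12 groups, and in 19 of the 48 libraries the sets deviated from the group mean in opposite directions. The library highest in the larger set was also the highest in the 100 genes falling mostly after day 2 in 11 of 12 groups. For the smaller set this was so in 4 of 12. The library highest in the larger set had the smallest total in 3 of 12 groups and the most genes with no count in 5 of 12. For the smaller set these were 5 and 4 of 12. Over all 100 genes, the 4 lowest libraries of day 4 had totals of 15.3 M to 15.8 M and the 4 highest had 8.84 M to 14.04 M. The totals overlapped on day 1, at 11.9 M to 16.7 M for the 4 lowest and 8.49 M to 15.1 M for the 4 highest, and on day 2, at 10.8 M to 20.1 M and 9.24 M to 15.1 M. Over 48 libraries, the deviation of the 100-gene mean from its group mean correlated with that of the library total at r −0.46. By day this r was −0.455, −0.263 and −0.857 on days 1, 2 and 4. With the number of genes at no count r was 0.602 over all libraries, and 0.838, 0.116 and 0.468 on the same days. The part of depth in these levels was not tested.

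**Figure D5:**
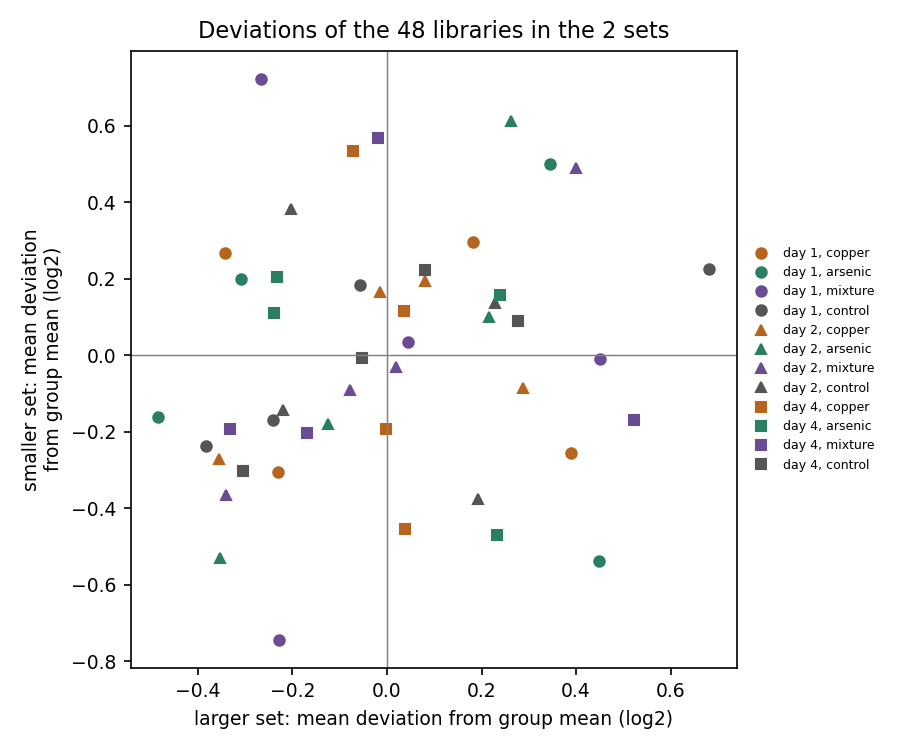
Mean deviation from the group mean (log2) of the smaller set against that of the larger set, with 1 point for each of the 48 libraries, coloured by treatment and shaped by day. In 19 libraries the deviations have opposite signs, which places them in the upper left and lower right of the plot.

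The sets also had different levels across treatments, given here as a description because they were chosen from these libraries. In the smaller set the mean L on day 2 was 4.52 ± 0.22 with copper, 4.10 ± 0.48 with arsenic, 3.69 ± 0.36 in the mixture and 4.14 ± 0.33 in controls (SD, n = 4 each). The mixture libraries ran from 3.32 to 4.17 and the copper libraries from 4.25 to 4.71, without overlap, while the mixture overlapped the control libraries, which ran from 3.77 to 4.53. In the larger set the same means were 4.44 ± 0.27 with copper, 4.61 ± 0.29 with arsenic, 4.65 ± 0.31 in the mixture and 4.47 ± 0.24 in controls, and all 4 treatments overlapped.

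Of the 13 genes that were lower with arsenic present at an unadjusted p under 0.05, 12 belonged to it. The median log2 difference was −0.28 over its 24 genes, 23 of which were below 0, and 0.08 over the 70 genes of the larger set, 56 of which were above 0. Genes of a set vary together, so these counts are not independent observations.

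Against controls on day 2, the smaller set had a median log2 difference of 0.42 with copper, −0.10 with arsenic and −0.50 in the mixture. On day 1 the same medians were −0.04, −0.04 and −0.33, and on day 4 they were 0.37, −0.06 and 0.00. With copper the median fall of this set was 0.18 by day 2 and 0.57 by day 4, against 0.63 and 0.92 in controls. In the mixture the median fall of the smaller set was 0.73 by day 2 and 0.54 by day 4. None of its genes passed the adjusted threshold in any of these contrasts.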

How the data were processed

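RNA sequencing libraries of whole Daphnia magna were analysed from a table of whole-number counts per gene deposited by the authors, 48 libraries in 12 groups of 4. The submitters' processing notes list edgeR, HTSeq and TopHat2 (2.1.1) without role or order. The sources used here state neither the genome build nor the annotation or strand setting. The table is named as normalised, but a score of the gaps that rescaling leaves among low values was at most 4.66 as deposited and at least 9.26 after multiplying by 0.95, so the values were treated as counts.

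CPM used column totals, and L = log2(CPM + 1). The 100 genes, the comparison lists and the rule for named genes were chosen with earlier results of these data known. Named were the 2 largest falls, the gene with the smallest p in each contrast without a call, the 2 highest levels, the shares nearest 50% and 100%, and the 2 most like the mean; genes in other sentences were chosen after their values were seen.

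Tests used edgeR 4.0.16 in R 4.3.3 (TMM, 12-group model over 48 libraries, quasi-likelihood F test, two-sided) on 15813 genes with at least 14 counts in at least 4 libraries; 253 were left out, and all 100 were tested. DESeq2 1.42.0 was an alternative, and the steps were tested on simulated data. The common coefficient of variation was 23.5%. The 72 pairs of libraries within groups all differed by more than the sampling noise of counts (lowest ratio of chi-square to degrees of freedom 9.32). Python 3.11.15 was used for tables and figures.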

Additional observations from a re-analysis of the deposited data

Results flagged for a closer look

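Among groups of 4 libraries, 10 values lay apart from the other 3 of their group by Dixon's criterion: 4 of the 48 groups tested for library measures, where chance gives 2.4, and 6 of the 192 tested for named genes, where chance gives 9.6.

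Dapma7bEVm010637t1 was high with copper on day 1 in replicate 4, at 163.3 CPM beside 93.9 to 101.4 CPM, and low with arsenic on day 4 in replicate 2, at 20.2 CPM beside 68.9 to 86.5 CPM. The same arsenic library was low in Dapma7bEVm009229t1, at 4.14 CPM beside 8.41 to 8.54 CPM. With arsenic on day 2, Dapma7bEVm002517t1 read 4.96 CPM in replicate 4 beside 10.9 to 11.4 CPM, and Dapma7bEVm005381t1 read 19.5 CPM in replicate 3 beside 24.1 to 24.98 CPM. Dapma7bEVm005243t1 read 22.3 CPM in control replicate 4 of day 1 beside 47.6 to 54.6 CPM.

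The mean L of the smaller set of 24 genes was 3.43 in arsenic replicate 3 of day 4 beside 4.01 to 4.10, and 4.403 in mixture replicate 3 of day 4 beside 3.63 to 3.67. Library totals stood apart in control replicate 1 of day 1, at 16.7 M counts beside 11.4 M to 11.98 M, and in control replicate 2 of day 4, at 15.8 M beside 11.9 M to 12.3 M.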

How the results depend on the processing

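The count of 0 called genes among the 100 held in all 17 contrasts under upper-quartile scaling and without the filter on low counts, and in the 15 contrasts that could be fitted on their own days alone. With DESeq2 it was 1 for the mixture against control on day 2 and 1 for the mixture's change from day 1 to day 2, and leaving out single libraries gave 0 to 1 for that change and 0 elsewhere; the gene was Dapma7bEVm003920t1 and the cause was not tested. With the replicate number as a block the count was 0 in every contrast. Deviations of same-numbered exposed and control libraries of a day correlated at −0.157 to 0.191, and 0 of 9 contrasts had every pair over 0.1. Pairs across days or between exposures were not examined, so whether the numbers mark shared cultures or batches was not settled.

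Of the 100 genes, the rule kept 85 after TMM scaling, 97 and 73 with a pseudocount of 0.5 and 5, 80 with a mean CPM from 10, 99 with no limit on W, and 77 to 96 without single libraries. Without single libraries the median fall ran from 0.57 to 0.64 and the share by day 2 from 62.5% to 70.7%; TMM scaling gave 0.52 and 66.5%, and pseudocounts of 0.5 and 5 gave 0.62 and 0.52, and 66.4% and 67.3%. Within treatments, leaving out single libraries (added after the data were seen) moved the median fall by day 2 to 0.34 to 0.55 with copper, 0.21 to 0.50 with arsenic, 0.12 to 0.41 in the mixture and 0.39 to 0.69 in controls. For most of the 100 genes the 95% interval of a difference in the fall reached past 2-fold.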
